A study of Homo sapiens with 4 samples.

Results

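Neobractatin (NBT), a natural compound from the plant Garcinia bracteata, was given alone at 1 µM for 12 h to cells labelled MIA PaCa-2, and their RNA was compared with that of untreated control cells. MIA PaCa-2 is an established human line of pancreatic ductal adenocarcinoma (PDAC). Each condition was 1 RNA-seq library, and the series also holds 1 library of cells given 5 µM trametinib, which inhibits the kinase MEK, and 1 of cells given both drugs (combination), each after 12 h. Genes were taken when at least 50 estimated reads fell on them in the control or the NBT library, which left 11081 of the 16834 genes in the table. The summed counts were 18776212 in the control and 19437747 in the NBT library, and 18949915 and 19614763 in the others, so read numbers of the libraries can be read side by side. Changes are log2 fold changes between counts scaled to these sums, after adding 0.5 reads. With 1 library per condition there was no replicate error and no test. The 95% intervals given are exact Clopper-Pearson intervals, which cover counting error only. They count PCR copies of 1 molecule as separate reads and leave out the error of dividing reads between genes.

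The marker genes went partly against the label of the cells. MIA PaCa-2 is known to have lost the locus that holds CDKN2A, which encodes the cell cycle inhibitor p16, and its neighbour MTAP, an enzyme of methionine salvage. CDKN2A nevertheless had 2643 reads without drugs, 2674 with NBT alone, 3524 under trametinib and 3187 under both drugs. MTAP had 1148, 1151, 840 and 815 reads in the same order. The line is also known for low E-cadherin and high vimentin, whereas in the control library CDH1 (E-cadherin) was at 85.4 TPM and VIM (vimentin) at 11.5 TPM, a scale that corrects for gene length. The epithelial keratins KRT8 and KRT18 stood at 3799 and 3142 TPM and the adhesion protein EPCAM at 242 TPM. KRT5 and TP63, markers of basal and squamous epithelium that were looked up after the other values were seen, were at 1180 and 35.2 TPM. All 4 libraries shared this pattern, and the reason for it was not tested. The cells are therefore called here by the name in the library titles only. In the cell line field of the labels the number at the end of the name counted up between libraries. Markers of fibroblasts, leukocytes and endothelium were near 0, with summed levels in the control and NBT libraries of 0.86 and 0.51 TPM for the 4 fibroblast genes, 3.34 and 3.08 TPM for the 4 leukocyte genes and 0.38 and 0.29 TPM for the 3 endothelial genes in the table. COL1A2 and LUM of the fibroblasts and CD3E of T cells had 0 reads in both libraries, which allows up to 0.16 CPM (reads scaled to the library sum) in the control.

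Cells answer unfolded protein in the endoplasmic reticulum, lack of amino acids and oxidative stress with transcription programmes that overlap. Their factors include XBP1, ATF6, ATF4 and NRF2. Cholesterol and fatty acid synthesis follow a different route. Their genes are driven by the SREBP factors, which sit in the membrane of the endoplasmic reticulum and are held there by INSIG proteins when sterols are plentiful. These programmes meet in protein quality control, where chaperones refold, the proteasome degrades and autophagy engulfs what cannot be refolded.

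With NBT, 160 of the 11081 genes (1.44%) were at least 2-fold higher than in the control and 98 (0.884%) at least 2-fold lower. The median log2 fold change over all genes taken was -0.0026 with an SD of 0.39 across genes, and 49.6% of the genes lay above 0. A change within 0.5 of 0 was seen in 87.4% of them. At least 4-fold changes were found for 25 genes on the higher side and 8 on the lower. All 258 genes past 2-fold had an interval that left out 0, which follows from the limits of 50 reads and 2-fold themselves. Variation between cultures was not measured. The limit was close for some members: IDI1 of cholesterol synthesis counted as lower at -1.005, and GADD45A and the zinc exporter gene SLC30A1, at 0.997 and 0.992, did not count as higher.

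**Figure D1:**
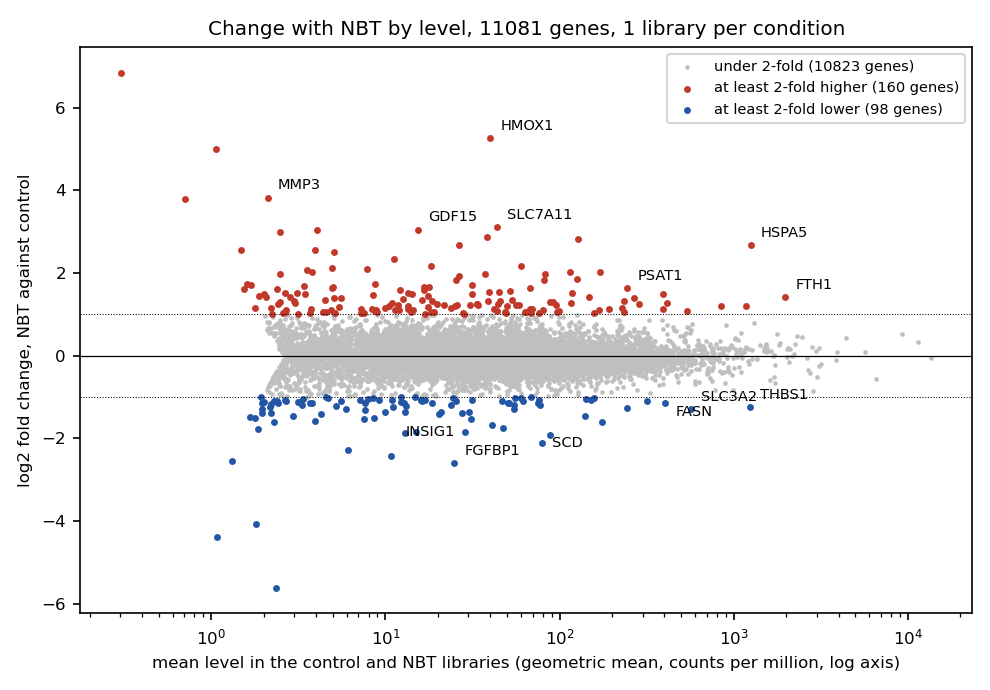
Log2 fold change of NBT against control (vertical axis) by mean level in the 2 libraries (CPM, log axis) for 11081 genes, 1 point per gene, with dotted lines at 2-fold. HMOX1 stands highest among genes of middle level at 5.26, HSPA5 and FTH1 are high among the abundant genes, and SCD, SLC3A2 and FASN are named on the lower side.

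The same drug step was measured a second time between the combination and trametinib libraries, which share no library with the NBT and control pair. Of the 160 higher genes, 152 had at least 50 reads in that pair too, and 111 of them (73%) were again at least 2-fold higher, against 289 of all 10981 genes (2.63%). Of the 98 lower genes, 93 could be followed and 74 (79.6%) were again at least 2-fold lower, against 353 of all genes (3.21%). Of the higher genes 143 lay above 0 in the second pair, where 47.2% of all genes did, and of the lower genes 89 lay below 0. The median log2 fold change in the second pair was 1.39 for the higher and -1.55 for the lower genes. Among genes with at least 1000 reads, all 64 higher and all 28 lower genes kept their side of 0. This second pair also has 1 library per side, so NBT and differences between cultures cannot be told apart in it either.

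**Figure D2:**
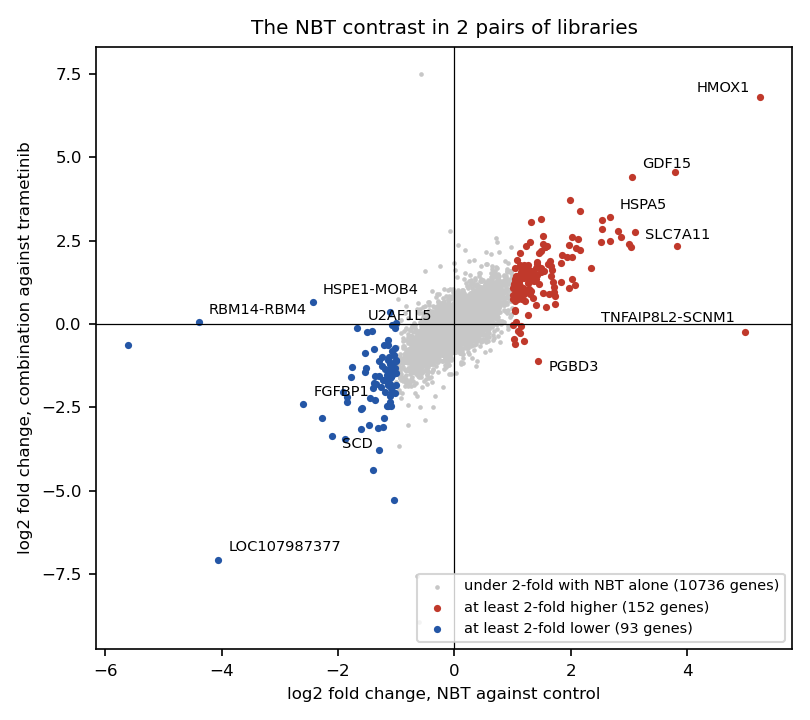
Log2 fold change of the combination against trametinib (vertical axis) by that of NBT against control (horizontal axis) for 10981 genes, with genes past 2-fold under NBT alone in red (higher) and blue (lower). Most coloured points lie in the upper right and lower left, and TNFAIP8L2-SCNM1, RBM14-RBM4, HSPE1-MOB4 and U2AF1L5 lie near or across the 0 line of the second pair.

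Genes of cholesterol synthesis and handling formed the list with the most members at least 2-fold lower. Of the 25 listed genes 22 were taken, 8 were at least 2-fold lower and 0 higher, and all 22 lay below 0, with a median of -0.70 beside -0.0026 over all genes. A regulator of the route was among them. INSIG1, which holds SREBP in the endoplasmic reticulum and is itself an SREBP target, fell from 1025 reads in the control to 295 with NBT, and had 1951 reads with trametinib and 396 with the combination. Its log2 fold change was -1.85 (95% interval from -2.04 to -1.66). The 2 libraries with NBT were below the 2 without it.

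Along the synthesis route the members past 2-fold included enzymes of early and of later steps. HMGCS1, which makes HMG-CoA at the start of the route, went from 1435 to 676 reads (-1.14). IDI1, which makes isoprene units, went from 1815 to 936 reads. LSS, which closes the ring to lanosterol, went from 1277 to 619 reads (-1.09). STARD4, a carrier of cholesterol between membranes, was at -1.07. SQLE, the squalene epoxidase, was at -0.58, and HSD17B7 was the member nearest to 0 at -0.10. SREBF2, the gene of the SREBP factor for sterols, went from 2511 to 1369 reads (-0.92). In the combination against trametinib all 22 genes were again below 0, with a median of -1.34, and 72.7% were at least 2-fold lower.

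**Figure D3:**
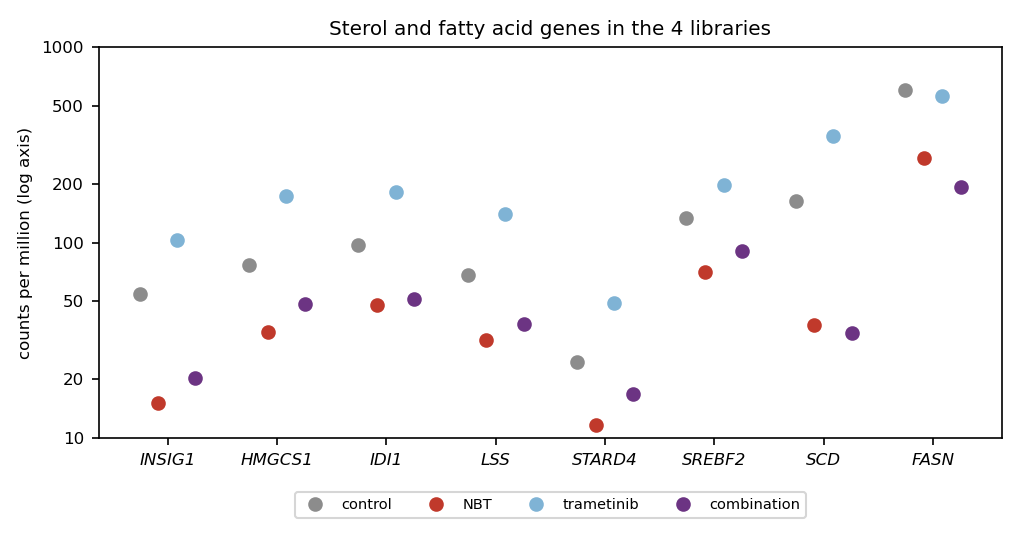
CPM values (log axis) of 6 sterol genes and the fatty acid genes SCD and FASN in the 4 libraries, 1 point per library. For each of the 8 genes the NBT and combination points lie below the control and trametinib points.

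Of 14 fatty acid synthesis genes, 2 were at least 2-fold lower, 0 were higher and the median was -0.25. SCD, the desaturase that makes oleic acid, had 3080 reads without drugs, 738 with NBT alone, 6675 under trametinib and 674 under both drugs, and its change with NBT was -2.11 (from -2.23 to -1.99). FASN, which builds palmitate, went from 11279 to 5250 reads (-1.15). ACACA, the carboxylase before it, was at -0.88, while the desaturases FADS1 and FADS2 stood above 0 at 0.26 and 0.77. NPC1, the protein that lets cholesterol out of lysosomes, was the most changed of 33 lysosomal genes, with 1123 reads in the control and 1947 with NBT (0.74), and 0 lysosomal genes passed 2-fold.

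XBP1 showed the largest shift between transcripts that both pairs of libraries shared. Under stress the enzyme IRE1 cuts a short stretch out of the XBP1 message in the cytosol, which changes the reading frame and yields the active factor. The table lists 2 RefSeq transcripts, one with the stretch (NM_005080.3) and one without it (NM_001079539.1). They differ by 26 bases in exon 4 of 5, within the coding sequence, at chr22:28796128-28796153 on the minus strand (GRCh38, GENCODE v29), a length that is not a multiple of 3. The bases are shown with 30 on either side because the 2 forms are told apart only by them, and the capitals mark the missing stretch, whose ends can be placed in 7 equal ways because of a repeat.
XBP1 with the stretch: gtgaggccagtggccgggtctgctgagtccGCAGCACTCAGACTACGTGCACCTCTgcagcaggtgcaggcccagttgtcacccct
XBP1 without the stretch: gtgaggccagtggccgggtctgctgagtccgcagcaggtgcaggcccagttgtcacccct
The form without the stretch had an estimated 45 reads without drugs, 2608.5 with NBT alone, 54.8 under trametinib and 3623 under both drugs. The form with it had 1366, 901, 1561 and 1287 reads in the same order. The share of the form without the stretch was thus 3.2% in the control and 74.3% with NBT, and 3.4% and 73.8% in the other pair. Both libraries with NBT were high and both without it were low.

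**Figure D4:**
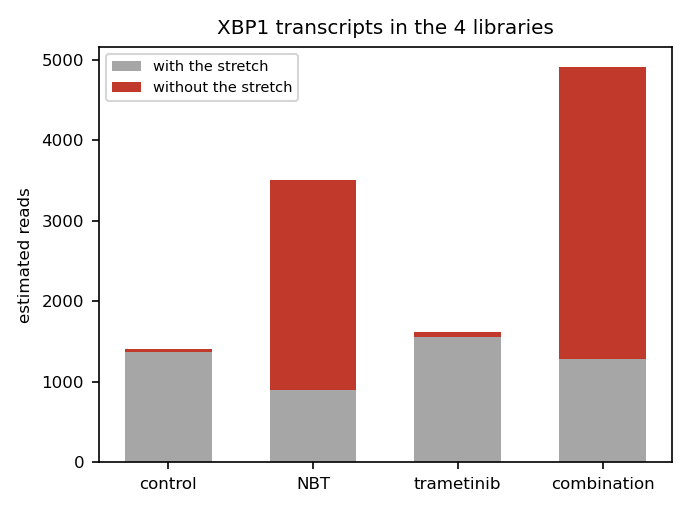
Estimated reads (vertical axis) of the XBP1 transcripts with and without the 26-base stretch, stacked, in the 4 libraries. The form without the stretch takes 74.3% of the bar with NBT and 73.8% with the combination, and under 4% in the other libraries.

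Shifts between transcripts were also counted over many genes, XBP1 included. Among 5479 genes with several transcripts and at least 500 reads in all 4 libraries, 1090 transcripts of 685 genes changed their share of the gene by at least 20 percentage points with NBT. Of these, 154 did so in the same direction between trametinib and the combination, 96 did so in the opposite direction and 840 changed by less. The genes had 35516 transcripts, and the share of all of them that changed as much in the second pair was not counted. MGAT5, a glycosyltransferase gene, had 1 transcript at 0% in the control and 100% with NBT, and at 15.9% and 69.2% in the second pair. For GDAP1 a transcript fell from 89.5% to 17.5% with NBT and stood at 90.7% and 88.0% in the other pair. The reads were divided between overlapping transcripts by estimation, and what that division adds to the shifts was not tested.

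Genes that make amino acids and load them onto tRNA held many higher members. The 20 cytosolic aminoacyl-tRNA synthetases, which join each amino acid to its tRNA, had a median of 0.50, with 3 at least 2-fold higher, 0 lower and 13 above 0. SARS1 (serine) had 2807 reads in the control and 7228 with NBT, GARS1 (glycine) 4955 and 12503, and WARS1 (tryptophan) 3036 and 6552, changes of 1.31, 1.29 and 1.06. CARS1 (cysteine) followed at 0.98 and AARS1 (alanine) at 0.87. VARS1 (valine) and QARS1 (glutamine) were at -0.28 and -0.21. The 17 synthetases of mitochondria, which do the same work on mitochondrial tRNAs, had a median of -0.06 with 0 past 2-fold, from -0.39 for MARS2 to 0.43 for RARS2. Of all genes, 1.44% were at least 2-fold higher and 49.6% above 0. In the second pair the cytosolic group had 15 of 20 above 0 (75.0%) and the mitochondrial group 6 of 17 (35.3%), beside 47.2% of all genes.

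Promoters of the synthetases were examined for the ATF4 element, for which the letters TGATGCAA were searched on both strands from 250 bases before to 50 after the start site. RefSeq promoters (GRCh38.p14) were matched for 16 of the 20 cytosolic genes, and 6 of them (37.5%) held it, beside 42 of 9168 promoters of all genes taken (0.458%). The 6 windows are shown because these genes all lay above 0 with NBT, and the capitals mark the element on either strand.
CARS1, chr11:3057398-3057445, minus strand: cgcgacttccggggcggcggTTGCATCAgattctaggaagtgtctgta
AARS1, chr16:70289666-70289713, minus strand: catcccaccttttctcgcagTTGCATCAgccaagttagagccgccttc
MARS1, chr12:57488044-57488091, plus strand: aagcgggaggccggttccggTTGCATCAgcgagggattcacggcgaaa
IARS1, chr9:92293683-92293730, minus strand: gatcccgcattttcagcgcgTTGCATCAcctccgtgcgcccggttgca
NARS1, chr18:57621795-57621842, minus strand: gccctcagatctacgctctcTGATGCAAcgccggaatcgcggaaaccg
TARS1, chr5:33440947-33440994, plus strand: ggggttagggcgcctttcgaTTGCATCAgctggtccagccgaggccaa
Their log2 fold changes ran from 0.46 (TARS1) to 0.98 (CARS1), and SARS1, GARS1 and WARS1, the members past 2-fold, were not among them. Of all genes at least 2-fold higher, 127 had a promoter and 2 held the element, HERPUD1 and CHAC1. A match of letters is a description and not a measured binding site.

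Other motifs were each counted on both strands and separately where letters overlapped. The antioxidant element TGACNNNGC was in 19.7% of the promoters of higher genes, 16.2% of those of lower genes and 15.2% of all. The heat shock element GAANNTTC was in 7.09%, 5.88% and 4.29%, and the E-box CACGTG in 5.51%, 14.7% and 10.4%. The CCAAT box, letters that the factor NF-Y recognises, was in 41.7%, 38.2% and 37.3%. In the cholesterol list 17 of 22 genes had a promoter, and 14 of these held CCAAT (82.4%, beside the 37.3% of all). INSIG1 and HMGCS1 are shown as 2 of the members that fell, with CCAAT or its reverse complement in capitals.
INSIG1, chr7:155297688-155297732, plus strand: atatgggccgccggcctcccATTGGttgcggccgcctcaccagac
HMGCS1, chr5:43313488-43313587, minus strand: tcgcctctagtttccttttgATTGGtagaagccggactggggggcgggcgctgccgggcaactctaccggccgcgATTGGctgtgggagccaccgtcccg
The sterol element, searched as TCACNCCAC and added after the other motifs were counted, was in 1 of these 17 promoters and in 1.04% of all.

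Enzymes that make serine, one-carbon units, asparagine and proline had 4 of 15 genes at least 2-fold higher, beside 1.44% of all genes. Of them 0 were lower, and the median was 0.49. ASNS, asparagine synthetase, had 1590 reads without drugs, 6701 with NBT alone, 2734 under trametinib and 7217 under both drugs (2.02, from 1.95 to 2.11). PSAT1 of serine synthesis rose from 2621 to 8384 reads (1.63), MTHFD2 of the mitochondrial folate route from 3109 to 8484 (1.40) and PYCR1 of proline synthesis from 410 to 1014 (1.26). The cytosolic folate enzymes SHMT1 and MTHFD1 were at -0.42 and -0.28. In the second pair 2 of the 15 genes were at least 2-fold higher and 1 lower, and 9 lay above 0 (median 0.50). PSAT1 and PYCR1 were under 2-fold there, at 0.89 and 0.99. PCK2, which makes phosphoenolpyruvate in mitochondria, went from 352 to 1439 reads (1.98).

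Amino acid transporters were split. SLC7A11, the light chain of the cystine importer xCT, rose from 279 to 2491 reads (3.11), SLC6A9, a glycine transporter, from 326 to 1107 (1.71), and SLC1A4, which carries alanine and serine, from 531 to 1208 (1.14). SLC3A2, the heavy chain that SLC7A11 and SLC7A5 need to reach the cell surface, moved the other way. It had 16603 reads without drugs, 7047 with NBT alone, 27310 under trametinib and 9655 under both drugs, a change of -1.29 (from -1.33 to -1.25) with NBT and -1.55 in the second pair. SLC7A5, the light chain for leucine and other large amino acids, went from 67239 to 48834 reads (-0.51). The 15 genes taken had a median of 0.46, with 3 higher and 1 lower.

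Proteasome genes were higher by small steps. All 33 proteasome subunit genes lay above 0, from 0.16 (PSMC3) to 0.76 (PSMD14), with a median of 0.30 and 0 past 2-fold. PSMD14, the subunit that removes ubiquitin from substrates, had 1980 reads without drugs, 3466 with NBT alone, 2254 under trametinib and 3814 under both drugs. In the second pair 32 of 33 lay above 0 with a median of 0.31. The 33 genes stayed above 0 with the other scalings of the libraries too, at 0.09 or more with TPM values.

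Autophagy genes included 4 of 27 at least 2-fold higher and 0 lower, with a median of 0.23. GABARAPL1 (252 to 999 reads, 1.94) and MAP1LC3B (810 to 2978, 1.83), which coat the growing autophagosome, were the highest. SQSTM1, the receptor p62 that brings ubiquitin-tagged cargo to them, rose from 14676 to 34880 reads (interval of the log2 fold change from 1.17 to 1.23), and WIPI1, an early membrane protein, from 185 to 413 (1.11). TFE3, a factor that drives autophagy and lysosome genes, stood at 0.61 and its relative TFEB at -0.13.

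**Figure D5:**
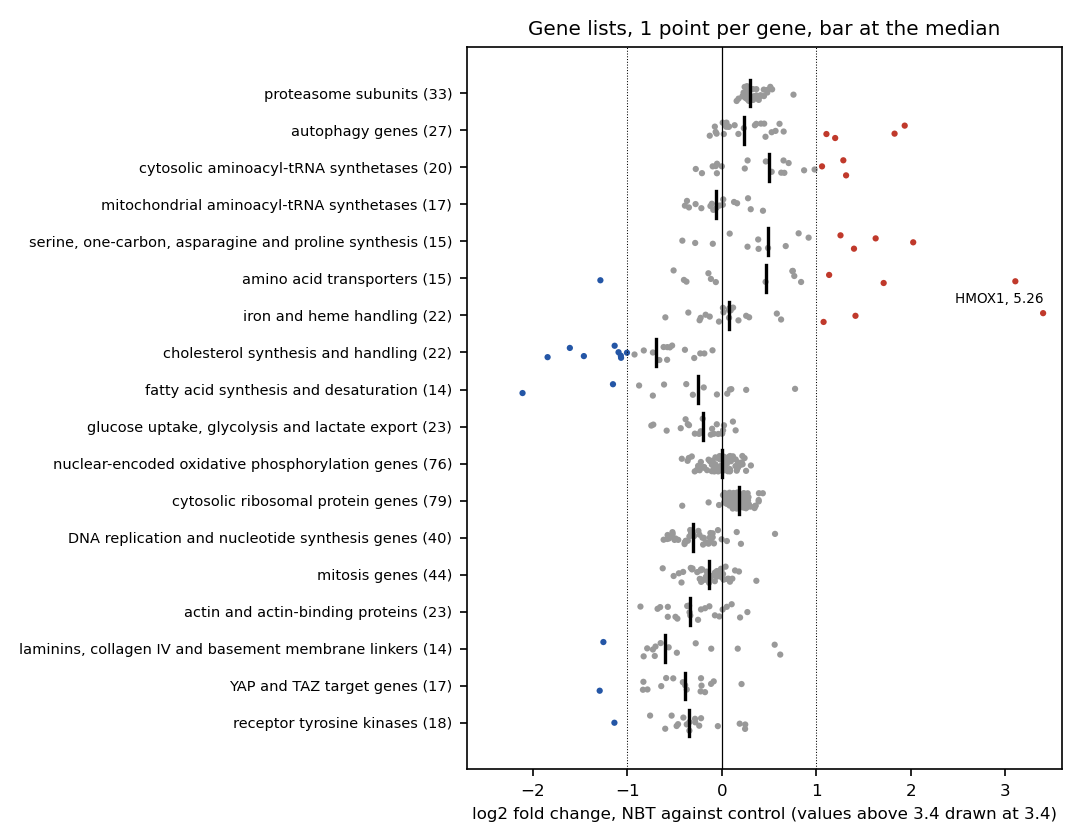
Log2 fold change of NBT against control for the genes of 18 lists, 1 point per gene with the number of genes in brackets and a bar at the median. Cholesterol genes lie to the left of 0 and proteasome genes to the right, and the red and blue points are genes at least 2-fold higher and lower.

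Chaperones of the cytosol and of mitochondria held 1 gene past 2-fold. Of 22 cytosolic heat shock genes this was HSPB8, a small chaperone that works with BAG3, with 153 reads in the control and 339 with NBT (1.10), and HSPA1B and HSPA1A, the inducible HSP70 copies, stood at 0.69 and 0.46. These copies are nearly identical and their reads cannot be separated surely. The median was 0.07. The 8 subunits of the cytosolic chaperonin ranged from -0.11 to 0.05, and all 8 were below 0 with TPM values. Among 15 mitochondrial chaperones and proteases LONP1, a protease of the matrix, and HSPA9, the matrix HSP70, stood apart at 0.69 and 0.66 from a median of 0.03 (-0.05 with TPM values), and HSPD1 and HSPE1 of the mitochondrial chaperonin were at 0.01 and 0.03.

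Iron and heme genes were led by HMOX1, which degrades heme, with 121 reads without drugs, 4825 with NBT alone, 382 under trametinib and 44631 under both drugs. FTH1 and FTL, the chains of the iron store ferritin, rose from 22786 to 62854 (1.41) and from 6983 to 15244 reads (1.08). TFRC, the receptor for iron uptake, was at -0.36 and BLVRB, which acts after HMOX1, at 0.63. Of 22 genes 3 were higher and 0 lower, with a median of 0.08. MT2A, a metallothionein that binds zinc and copper, gained the most CPM of all genes (144364 to 216752 reads, 0.54), and of the zinc carriers the exporter SLC30A1 stood at 0.99 and the importer SLC39A10 at -0.92.

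Genes of DNA replication and nucleotide synthesis were mostly lower, by small steps. Of 40 taken, 36 lay below 0, with a median of -0.30, 0 past 2-fold and the licensing factor CDT1 lowest at -0.62. Its partner CDC6 went the other way, with 1299 reads without drugs, 1986 with NBT alone, 1194 under trametinib and 2128 under both drugs (0.56). The median of the list in the second pair was -0.53. Mitosis genes had a median of -0.13 with 34 of 44 below 0, and DNA repair genes -0.14 with 23 of 30 below 0 and GADD45A at 1.00 on the opposite side. Among 21 G1 regulators 19 were below 0 (median -0.25, or -0.16 over those with at least 200 reads), including the D-type cyclins CCND1 (8472 to 4693 reads, -0.90) and CCND2 (6976 to 4052, -0.83) and the CDK4 inhibitor gene CDKN2D (-0.93). The other 2 lay above 0, the higher of them at 0.75. MXD1, an antagonist of MYC, rose from 433 to 1314 reads (1.55) while MYC stood at 0.46.

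Lists of energy metabolism and ribosomes held 0 genes past 2-fold and differed in their direction. The 76 nuclear genes of oxidative phosphorylation had a median of 0.001, with 38 above 0, or 26 with TPM values, which moved the median of all genes to -0.07. In the second pair 2 of 76 were above 0. The 79 ribosomal protein genes had a median of 0.18 with 76 above 0, whereas in the second pair their median was -0.02. Ribosome biogenesis genes had a median of -0.15 with 30 of 39 below 0, and 0.06 in the second pair. Glycolysis genes had a median of -0.20 with 17 of 23 below 0 and LDHA at -0.58. The 341 C2H2 zinc finger genes had a median of 0.12, with 235 above 0, where 49.6% of all genes lay. In the second pair 72.0% were above 0, beside 47.2% of all genes. Past 2-fold were 2 higher and 3 lower, beside 1.44% and 0.884% of all genes. The lowest was ZNF488, with 468 and 132 reads (-1.87). Hypoxia genes had 1 of 15 higher (NDRG1, 2157 to 4832 reads) and 1 lower (CA9, 340 to 163), with VEGFA at 0.90. Mitochondrially encoded genes and small nucleolar RNA host genes were not analysed here.

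Lists of matrix and cytoskeleton genes differed. LAMA5, the laminin chain of mature basement membranes, fell from 7115 to 3087 reads (-1.25), and the 14 laminin, collagen IV and linker genes had a median of -0.61, with 11 below 0 and 3 above. BCAM, a laminin receptor that binds LAMA5, went from 3189 reads in the control to 879 with NBT, and from 3887 with trametinib to 981 with the combination (-1.91). ITGB8, an integrin subunit, was at -1.24, and TGFB2 went from 1611 to 680 reads (-1.29). HAS3, which makes hyaluronan, went from 1629 to 499 reads (-1.76). The actin list had a median of -0.33 over 23 genes and 0 past 2-fold, and ACTB (150619 to 104830 reads, -0.57) and ACTG1 (72268 to 41154, -0.86) lost the most CPM of all genes. The 14 tubulin and microtubule genes had a median of -0.08 with 1 higher and 0 lower, and the 19 matrix proteases and plasminogen activators a median of 0.01 (-0.05 with TPM values) with 3 higher, 0 lower and 11 above 0. Of 17 target genes of YAP and TAZ, which respond to cell tension, 16 lay below 0 (median -0.39). TGFB2 was the one past 2-fold, and CCN2 was the one above 0, at 0.21.

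Of 18 receptor tyrosine kinases 15 lay below 0, with a median of -0.34, 0 higher and 1 lower, FGFR3 (211 to 99 reads, -1.14), and EGFR and MET stood at 0.25 and 0.19. Secreted factors were found on both sides. The EGFR ligands AREG (692 to 1680 reads, 1.23) and HBEGF (147 to 395, 1.37) rose. THBS1, a secreted inhibitor of vessel growth, fell from 35644 to 15574 reads (-1.24), and the vessel peptide APLN from 251 to 53 (-2.28), while ADM2, a relative of adrenomedullin, rose from 16 to 136. MMP3, a matrix protease, rose from 10 to 153 reads (3.82, from 2.97 to 4.97) and MMP1 from 34 to 102 (1.52). MMP1 had 18 reads with trametinib and 21 with the combination, under the minimum of 50. Its change there was 0.17 with an interval from -0.81 to 1.17, too wide to tell whether the rise came back. The 16 NF-kB targets had a median of -0.22 with 11 below 0 (in the second pair 7 of 16, median 0.03). Of them the cytokine genes CXCL2 (23 to 96 reads, 1.99) and IL1A (373 to 904, 1.23) were higher and IL6 (130 to 50, -1.42) lower. IL6 had 129 reads with trametinib and 114 with the combination, a change of -0.23 with an interval from -0.60 to 0.15. A 2-fold fall was thus not seen again, while a smaller one lies within the interval. The counts of IL6 were not whole.

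Further lists held single genes past 2-fold. CASP4, an inflammatory caspase that cleaves gasdermin D, rose from 461 to 1193 reads (1.32), the only one of 28 death receptor, caspase and gasdermin genes. In the BCL2 family BBC3 (PUMA) and PMAIP1 (NOXA), which promote cell death, were the highest at 0.95 and 0.80 of 14 genes. KLF4, a differentiation factor of epithelium, rose from 313 to 741 reads (1.19), and SESN2, which restrains mTORC1 when leucine is short, from 267 to 2015 (2.86). ID3, a BMP target, was at -1.03 and the complement gene C3 at -1.12 on 55 and 26 reads. MAP2, a microtubule protein of neurons, rose from 30 to 184 reads (2.55). The epithelial-mesenchymal list had 0 genes past 2-fold and a median of -0.15 over 19 genes, with 7 above 0 and 12 below. Of these genes CDH1 was at -0.67 and ZEB1 at 0.95 on 84 and 168 reads.

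Most genes past 2-fold were in no list, 126 on the higher and 74 on the lower side. GDF15, a stress cytokine, rose from 100 to 862 reads (3.05). SLFN5, of the Schlafen family, had 530 reads without drugs, 2468 with NBT alone, 802 under trametinib and 3824 under both drugs (2.17), and the iron-binding lipocalin LCN2 went from 11 to 69 (2.55). LURAP1L had 3 and 50 reads, a log2 ratio of 3.80 with an interval from 2.38 to 6.33. Among the falls FGFBP1, which frees FGF from the matrix, had 1143 reads without drugs, 195 with NBT alone, 267 under trametinib and 52 under both drugs (-2.60). SRGAP3 went from 536 to 154 reads (-1.85) and DMBT1 from 59 to 10 (-2.55). The largest fall of all was that of the uncharacterised gene LOC102724219, with 306 reads in the control and 6 with NBT (-5.61, from -7.18 to -4.58), but 242 and 162 in the second pair (-0.63), and its counts were not whole. LOC107987377, also uncharacterised, had 137, 8, 455 and 3 reads in the order control, NBT, trametinib and combination.

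Several of the largest changes rested on genes that share their sequence with others. FSBP, which lies within another gene, had 0 reads in the control and 59 with NBT, at least 19-fold higher when the control is set at 3 reads. TNFAIP8L2-SCNM1, a read-through of neighbouring genes, had 3 and 115 reads, and 64 and 56 in the second pair. RBM14-RBM4 (91 and 4 reads) and HSPE1-MOB4 (473 and 90), also read-throughs, were at -4.40 and -2.44, and at 0.05 and 0.66 in the second pair. U2AF1L5, a copy of the splicing factor gene U2AF1, had 1364 reads in the control and 444 with NBT, while U2AF1 had 999 and 2127. These values are uncertain, because the reads of such genes were divided between them by estimation. Counts were not whole numbers in 1 or both libraries for 54.9% of the genes taken. Of the genes past 2-fold with whole counts, 77 were higher and 56 lower, and in the second pair 71 of 72 and 52 of 52 of them kept their side of 0.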

How the data were processed

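RNA of 4 libraries, 1 per condition, was sequenced on the BGISEQ-500 platform. The authors deposited, per gene and per RefSeq transcript, estimated counts without normalization, and TPM and FPKM values; the submitters' processing notes name Bowtie2 2.2.5, RSEM 1.2.8 and the build hg38. Deposited FPKM values were not used, deposited TPM values gave levels and 1 alternative. Libraries were assigned by title and treatment. Every column of values per library was used or named, and 0 were left unmapped.

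Estimated counts were rounded and scaled to library sums (18776212 reads in the control, 19437747 with NBT). Genes with at least 50 counts in the control or NBT library were taken, and a limit of 2-fold was used with no test. The members and the 53 gene lists, 4 of them cell type markers, were chosen with earlier results of these data known. Named genes were the 15 largest rises and falls, the 10 largest with at least 1000 counts, the 5 largest gains and losses in CPM, and in each list up to 6 members past 2-fold, otherwise the most changed one, with members that define the list; some genes that this rule names are not reported here. Further genes were chosen after their values were seen: U2AF1, KRT5, TP63, the list members named under 2-fold, and HERPUD1 and CHAC1 through their promoters. For each gene the first listed RefSeq promoter was used. Alternatives were TMM (edgeR 4.0.16), median of ratios (DESeq2 1.42.0), TPM with 0.1 added, 5 added reads, summed transcript counts, other count minimums (200 or 1) and other log2 limits (2 or 0.58). Python 3.11.15, pandas 2.3.3, scipy 1.17.1 and R 4.3.3 were used, and the steps were tested on simulated counts.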

Additional observations from a re-analysis of the deposited data

Results flagged for a closer look

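PGBD3 was the only gene past 2-fold in both pairs of libraries in opposite directions. It had 21 reads in the control and 60 with NBT, a log2 fold change of 1.44 (95% interval from 0.73 to 2.26), and 92 reads with trametinib and 44 with the combination, a change of -1.11 (from -1.67 to -0.58). The difference was not tested, since each side is 1 library, and its counts were divided with other genes.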

How the results depend on the processing

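Each condition is 1 library, so no replicate could be left out and the labels pair none. An additive fit over the 4 libraries, which would take any interaction of the drugs as error, was not run. The count of genes past 2-fold, 160 higher and 98 lower, was within 1.5 times with both other scalings, TPM, 5 added reads and summed transcript counts. It became 1168 and 985 without a count minimum and 63 lower genes with at least 200 counts. A log2 limit of 2 left 25 and 8, a limit of 0.58 gave 550 and 439, and genes with whole counts, chosen after the data were seen, gave 77 and 56. Without a count minimum 60.2% of the genes past 2-fold kept their side of 0 in the second pair. TPM values moved the median of all genes to -0.07 and the medians of the chaperonin (-0.0755), proteasome (0.23), cytosolic synthetase (0.43), glycolysis (-0.27), ribosomal protein (0.12), actin (-0.40) and tubulin lists (-0.16). At least 200 counts gave 0.63 in place of 0.43 for EGF ligands, 0.19 in place of -0.0068 for complement and 0.19 in place of -0.11 for clock genes, and no minimum gave -0.14 in place of -0.24 for integrins and -0.54 in place of -0.37 for angiogenesis factors. Smaller shifts, within the counting error of a typical single member gene, still moved some medians by over 1.5 times. With at least 200 counts these were G1 regulators (-0.16), MHC class I genes (-0.13) and NF-kB targets (-0.36), and immediate early genes turned to 0.0028. Without a minimum they were NF-kB targets (-0.11), hypoxia genes (-0.24 in place of -0.11) and clock genes (-0.05). With TPM they were hypoxia (-0.18), DNA repair (-0.21), interferon response (-0.17), clock (-0.17), caspase (0.09 in place of 0.16) and C2H2 genes (0.06 in place of 0.12). Other medians under 0.1 in size changed sign or by more than that with some settings. In all, 324 of the recomputed medians stayed within the counting error of a typical single member gene and 12 did not. The error of a median itself was not computed. Of 79 named genes past 2-fold 0 changed sign, and SERPINB2 (0.97) and WARS1 (0.98) came under the limit with TPM.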

Other observations

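Some lists showed no gene past 2-fold. Interferon response genes had a median of -0.11 over 12 genes, MHC class I genes -0.21 over 14 (-0.13 over those with at least 200 reads) with TAPBP lowest at -0.69, circadian clock genes -0.11 over 13 and replication-dependent histone genes 0.01 over 8 (-0.06 with TPM values). Immediate early genes had a median of -0.02 over 18 (0.0028 over those with at least 200 reads), and ATF3, a stress factor, was the most changed at 0.92 with 718 reads without drugs, 1405 with NBT alone, 2329 under trametinib and 6091 under both drugs. In the combination against trametinib the list differed, with a median of 0.84 and 13 of 18 above 0. There 7 were at least 2-fold higher (38.9%, beside 2.63% of all genes) and 0 lower. TGF-beta and BMP response genes had a median of -0.24 and integrins -0.24, each with 1 gene past 2-fold.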
